A study of Homo sapiens with 12 samples.

Results

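The comparison set OLR1 siRNA against scramble siRNA in SZ95 sebocytes that had all received UV-oxidised PAPC (UV-PAPC). It used 6 of the 12 arrays of the series, 3 per siRNA, chosen by their labels. Each gene was represented by its brightest probe set among the entries that carry exactly 1 symbol, which gave 18417 genes from 33297 entries on the array. SZ95 is an immortalised human sebaceous gland line. Per the labels, the cells grew in Sebomed medium, were lipofected with either siRNA using Lipofectamine, and received UV-PAPC at 25 µg/ml 24 h later. The groups compared were therefore scramble siRNA with UV-PAPC and OLR1 siRNA with UV-PAPC. The other 6 arrays, scramble siRNA untreated and OLR1 siRNA untreated, gave the same contrast without the lipid. All 4 groups were transfected and all come from this single cell line. The labels name no vehicle, no unoxidised PAPC and no untransfected cells, and they do not give the siRNA sequences, the number of siRNAs or the length of the lipid exposure. They also do not say whether replicates came from separate cultures; p-values here reflect the spread among these arrays alone, which could be technical. In a bulk sample, fewer cells in a state and less RNA per cell cannot be told apart.

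OLR1 encodes LOX-1, a lectin-like scavenger receptor best known from endothelium and macrophages, where it binds oxidised low-density lipoprotein and signals towards NADPH oxidase, NF-kB and MAP kinases. PAPC is an arachidonate-bearing membrane phospholipid, and its oxidation products act on stress and inflammatory pathways in many cell types. Sebocytes divide at the edge of the sebaceous gland, then leave the cell cycle as they fill with lipid. Cells in the cycle switch on replication genes through E2F factors and, later, mitotic genes through the MuvB complexes that read the CHR element in their promoters.

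The 6 arrays correlated at 0.996 to 0.998 within a siRNA and at 0.991 to 0.995 between siRNAs (Pearson r of log2 signal over the genes tested). The labelled cell type was checked against sebocyte markers in the scramble UV-PAPC arrays. KRT7, a keratin of simple and glandular epithelium, had a mean log2 signal of 11.26, the desaturase FADS2 9.94, the mucin MUC1 8.03 and the lipid receptor PPARG 7.85. The keratinocyte and epithelial markers EPCAM (11.69), KRT5 (11.355) and CDH1 (11.21) were about as bright as KRT7, while KRT14 (6.32) and KRT15 (4.94) were dimmer. The check therefore did not separate sebocytes from other epithelial cells. The markers of late sebaceous differentiation MC5R (4.25), ELOVL3 (3.76) and AWAT1 (5.16) lay below the medians of the 12 arrays, which ran from 5.73 to 5.83. The table holds no detection call, so their absence was not decided.

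The targeted gene itself fell in the OLR1 siRNA arrays. OLR1 (probe set 7961142) had log2 signals of 6.19, 5.49 and 5.74 in the scramble arrays and of 4.47, 4.33 and 4.41 in the OLR1 siRNA arrays. The groups did not overlap, and the scramble arrays spread more widely than the OLR1 siRNA arrays. The difference was 2.64-fold, or -1.40 on the log2 scale (SE 0.18, adjusted p = 0.000162, limma with Benjamini-Hochberg adjustment over all genes). In untreated cells the scramble arrays held 6.18, 5.56 and 5.35 and the OLR1 siRNA arrays 4.66, 4.38 and 4.48, a difference of -1.19. The array measures RNA, so the amount of LOX-1 protein is not known from it.

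Across the genome, 2302 genes (12.5%) passed an adjusted p of 0.05, which is what rose, fell and called mean from here on. Of these, 1462 were higher with OLR1 siRNA (7.94% of genes) and 840 lower (4.56%). Most changes were small. Only 9 genes rose and 9 fell by at least 2-fold, and 78 rose and 68 fell by at least 1.5-fold. The smallest called change was 0.19 on the log2 scale, and the median standard error over genes was 0.08. The 3 arrays of each siRNA did not overlap for 5664 genes (30.8%), and 2265 of the called genes were among them. Without an adjustment for multiple tests, 5167 genes had a p under 0.05. The count of called genes moved with single arrays: it was 1372 without scramble replicate 3 (783 higher) and 1267 without OLR1 siRNA replicate 1 (769 higher, 498 lower), and the higher count was 970 without OLR1 siRNA replicate 3. With arrays centred on their medians the split was 1914 higher and 620 lower, so that 75.5% of called genes were higher, against 63.5% as deposited. The direction of calls also followed the signal. Genes were ranked by signal in 3 sets of 6139. In the brightest set 1040 rose and 310 fell, with a median log2 difference of 0.07, while in the dimmest set 41 rose and 124 fell, with a median of -0.04. The median over all genes was -0.01. The shares of gene lists below are set against all genes, not against genes of like signal.

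**Figure D1:**
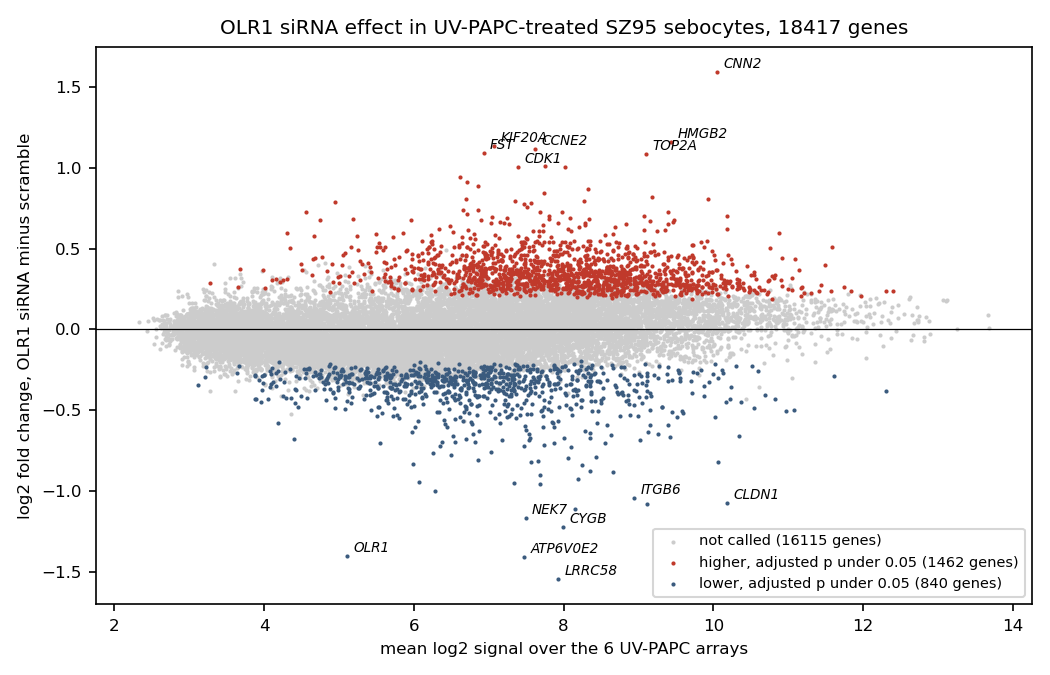
Log2 fold change of OLR1 siRNA over scramble siRNA with UV-PAPC (vertical axis) against mean log2 signal over the 6 UV-PAPC arrays (horizontal axis), a point per gene. Red points are the 1462 genes called higher and blue points the 840 called lower. CNN2 stands highest at 1.59 and LRRC58 lowest at -1.54, and most red points sit at middle to high signal.

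Outside the target, CNN2 rose most, and the other high changes mixed genes of the dividing cell with genes of other roles. CNN2, an actin-binding calponin, read 9.29, 9.17 and 9.28 in the scramble arrays and 10.81, 10.82 and 10.89 in the OLR1 siRNA arrays. The groups lay far apart against the spread within each, and the difference was 3.01-fold (log2 1.59, SE 0.07, adjusted p = 3.2e-09). HMGB2, a chromatin protein abundant in proliferating cells, rose from 8.71, 8.92 and 8.95 to between 9.98 and 10.07, a change of 1.16. FST, the secreted activin antagonist follistatin, rose from 6.30, 6.52 and 6.34 to 7.28, 7.46 and 7.68, a change of 1.09. The FST groups were also clear of each other, with a wider spread in the OLR1 siRNA arrays. TGS1, which methylates the cap of small nuclear RNAs, rose by 1.01, the semaphorin SEMA3B by 0.91, the microtubule-associated NAV3 by 0.89 and the decapping factor DCP1A by 0.87. The other 5 of the 12 highest were the cell cycle genes KIF20A, CCNE2, TOP2A, CDK1 and HMMR.

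Genes that fell furthest had more varied roles. LRRC58 read 8.74, 8.79 and 8.57 with scramble and 7.24, 7.16 and 7.09 with OLR1 siRNA, a 2.91-fold difference (log2 -1.54, SE 0.07, adjusted p = 7.13e-09). ATP6V0E2, a subunit of the proton pump of lysosomes, went from 8.13, 8.39 and 8.03 to 6.63, 6.66 and 7.03 and fell by 1.41. CYGB, the oxygen-binding cytoglobin, went from 8.64, 8.53 and 8.62 to 7.34, 7.44 and 7.36 and fell by 1.22. In each of these genes every scramble array stood above every OLR1 siRNA array by more than the spread within a group. CLDN1, the tight junction claudin of epithelia, went from 10.78, 10.78 and 10.58 to 9.68, 9.51 and 9.74 and fell by 1.07. ITGB6, the epithelial integrin chain that activates latent TGF-beta, went from 9.52, 9.53 and 9.34 to 8.47, 8.28 and 8.52 and fell by 1.04. These were bright genes in the scramble arrays, and both groups were again separate. Changes of -1.17 and -1.11 were measured for the kinase NEK7 and for ANKRD52, a regulatory subunit of protein phosphatase 6. SLC25A32, a mitochondrial folate carrier, fell by 1.08, the Hippo pathway adaptor MOB1B by 1.00, the polyadenylation factor CPEB4 by 0.96 and MIGA1, a mitochondrial outer membrane protein, by 0.95. All 23 of these non-target genes stayed past the threshold in each of the 21 alternative settings in which they were tested. MIGA1 changed most in size, to -0.53 with the mean of its probe sets.

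**Figure D2:**
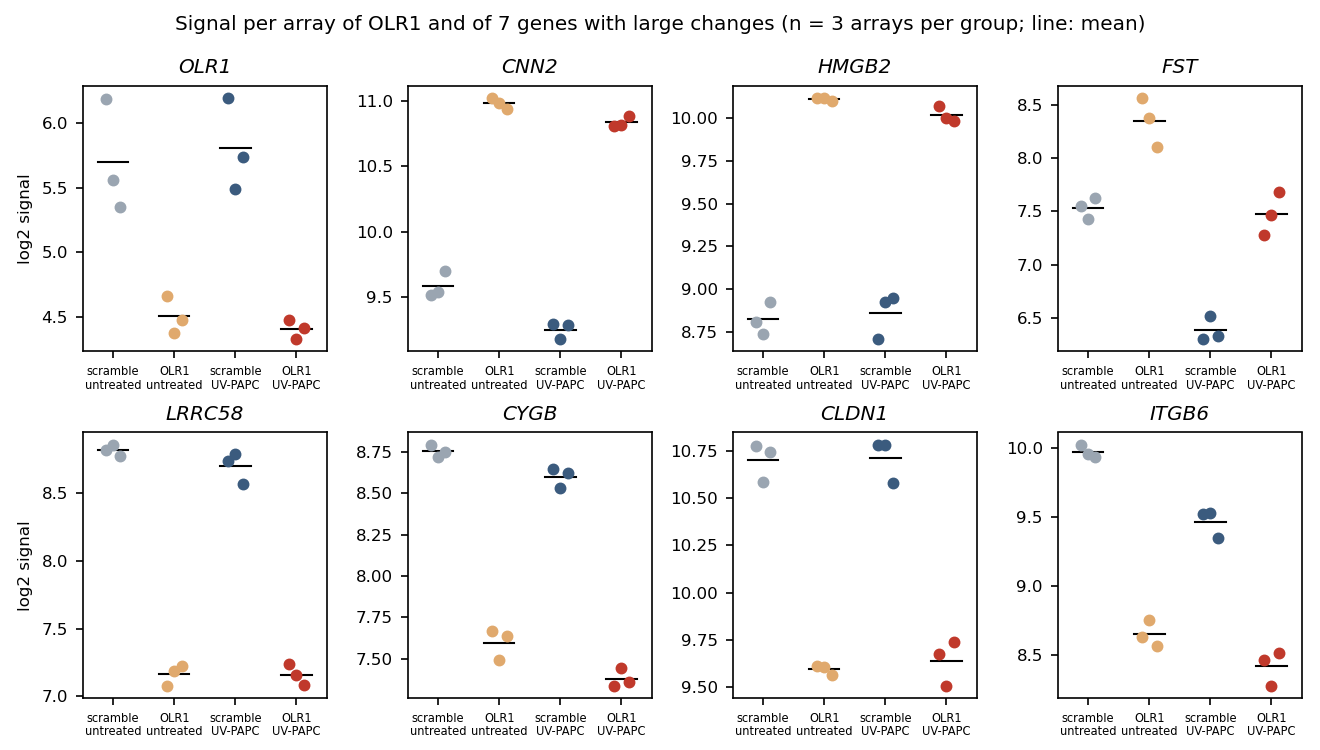
Log2 signal per array (vertical axes, scaled to each gene) of OLR1 and 7 genes with large changes in the 4 groups of 3 arrays; horizontal lines are group means. With UV-PAPC the OLR1 siRNA arrays lie above every scramble array for CNN2, HMGB2 and FST and below every scramble array for the other 5, and the untreated arrays divide the same way.

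Mitotic genes rose together. Of 49 measured genes of G2 and mitosis, 44 rose and 0 fell, against 7.94% and 4.56% of all genes, and 48 lay above 0. Their median log2 difference was 0.47 and their range -0.07 to 1.13. Leaving out any single array kept the count between 38 and 44. Relative to the mean of the scramble UV-PAPC arrays, the mean of the list stood at 0.01, 0.06 and -0.07 in those arrays and at 0.51, 0.44 and 0.49 in the OLR1 siRNA arrays, so every OLR1 siRNA array stood above every scramble array. The rise took in KIF20A, a kinesin of the cleavage furrow, which read 6.54, 6.69 and 6.29 with scramble and 7.73, 7.53 and 7.67 with OLR1 siRNA (change 1.13, adjusted p = 5.76e-06). TOP2A, which untangles sister chromatids, went from 8.53, 8.68 and 8.46 to 9.64, 9.63 and 9.66 (1.08, adjusted p = 2.26e-07). CDK1, the kinase that drives entry into mitosis, went from 7.02, 6.90 and 6.76 to 7.92, 7.79 and 7.99 (1.00, adjusted p = 2.74e-06). In these genes both groups were separate by more than their spread. HMMR, a spindle protein, rose by 1.00, the midzone kinesin KIF23 by 0.81 and cyclin B2 (CCNB2) by 0.70. The 5 members not called were FOXM1, CDC25B, CDC25C, UBE2C and CKAP2, singled out after their values were seen. FOXM1, a transcription factor of mitotic genes, differed by 0.05 (95% interval -0.08 to 0.17) and the phosphatase CDC25B by 0.02 (-0.12 to 0.17).

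Replication genes moved the same way with smaller steps. Of 44 measured genes of G1/S and DNA replication, 28 rose and 1 fell, with a median of 0.29, and leaving out single arrays gave 20 to 28 that rose. The list mean stood at 0.04, 0.03 and -0.06 in the scramble arrays and at 0.32, 0.26 and 0.30 in the OLR1 siRNA arrays. CCNE2, the cyclin E2 partner of CDK2, read 7.04, 7.20 and 6.95 with scramble and 8.13, 8.25 and 8.16 with OLR1 siRNA (change 1.12, adjusted p = 2.13e-06). CLSPN, the fork protein claspin, rose by 0.82, the transcription factors E2F3 and E2F8 by 0.59 and 0.56, the sliding clamp PCNA by 0.47 and the helicase subunit MCM6 by 0.45. The exception was CDK6, a G1 kinase, which went from 9.04, 9.03 and 8.93 to 8.63, 8.56 and 8.61 and fell by 0.40 (adjusted p = 0.000825). A further member was called lower without scramble replicate 3, which made 2.

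The promoters of 4 mitotic and 2 replication genes among those that rose most are shown because the genes of each list moved together. Each runs from 250 bases before to 50 after the RefSeq start (GRCh38.p14), 5′ to 3′ on the gene's strand. Capitals mark CCAAT or its reverse complement ATTGG and the CHR letters TTTGAA or TTCAAA in the first 4, and TTTNNCGC or its reverse complement in the last 2.
KIF20A (chr5:138178862-138179161, forward strand): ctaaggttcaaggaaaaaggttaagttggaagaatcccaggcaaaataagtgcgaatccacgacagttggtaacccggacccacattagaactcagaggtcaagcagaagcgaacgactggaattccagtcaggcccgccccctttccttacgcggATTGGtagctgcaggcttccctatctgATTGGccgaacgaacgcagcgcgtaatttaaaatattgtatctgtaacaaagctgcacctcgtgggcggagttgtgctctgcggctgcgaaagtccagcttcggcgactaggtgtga
TOP2A (chr17:40417847-40418146, reverse strand): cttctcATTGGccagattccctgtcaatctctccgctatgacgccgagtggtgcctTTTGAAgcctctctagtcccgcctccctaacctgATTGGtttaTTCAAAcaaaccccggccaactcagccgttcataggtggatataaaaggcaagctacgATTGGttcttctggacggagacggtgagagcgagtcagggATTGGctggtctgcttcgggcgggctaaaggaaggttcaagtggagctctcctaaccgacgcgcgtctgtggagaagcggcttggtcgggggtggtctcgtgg
CDK1 (chr10:60778081-60778380, forward strand): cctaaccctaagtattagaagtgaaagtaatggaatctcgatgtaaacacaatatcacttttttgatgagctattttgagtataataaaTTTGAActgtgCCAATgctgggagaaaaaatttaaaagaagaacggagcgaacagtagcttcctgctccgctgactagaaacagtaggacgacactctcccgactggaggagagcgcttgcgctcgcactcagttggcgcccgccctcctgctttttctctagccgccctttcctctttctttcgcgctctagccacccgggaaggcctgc
HMMR (chr5:163460382-163460681, forward strand): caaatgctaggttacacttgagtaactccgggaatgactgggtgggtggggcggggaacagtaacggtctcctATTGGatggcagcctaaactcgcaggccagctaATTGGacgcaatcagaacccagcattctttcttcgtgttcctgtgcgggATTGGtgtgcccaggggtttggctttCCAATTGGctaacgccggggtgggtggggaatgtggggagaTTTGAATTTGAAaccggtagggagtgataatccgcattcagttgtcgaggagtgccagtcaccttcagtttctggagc
CLSPN (chr1:35769929-35770228, reverse strand): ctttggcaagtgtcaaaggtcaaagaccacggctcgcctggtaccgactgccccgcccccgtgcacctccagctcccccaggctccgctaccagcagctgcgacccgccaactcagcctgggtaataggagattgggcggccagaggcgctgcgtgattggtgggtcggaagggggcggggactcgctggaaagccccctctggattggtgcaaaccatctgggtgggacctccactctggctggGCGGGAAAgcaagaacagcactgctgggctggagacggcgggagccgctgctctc
E2F3 (chr6:20401629-20401928, forward strand): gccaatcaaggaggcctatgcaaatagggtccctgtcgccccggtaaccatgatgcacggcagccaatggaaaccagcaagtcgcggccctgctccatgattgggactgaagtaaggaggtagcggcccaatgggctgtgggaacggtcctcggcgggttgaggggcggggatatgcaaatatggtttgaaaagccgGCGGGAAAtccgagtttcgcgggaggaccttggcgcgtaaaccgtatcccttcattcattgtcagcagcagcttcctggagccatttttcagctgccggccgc
Both strands were searched, and overlapping matches were counted apart, as in HMMR, where a CCAAT and an ATTGG overlap. CCAAT was found in 30 of the 41 mitotic promoters with a RefSeq entry (73.2%) against 36.3% of 14239 promoters of tested genes. CHR letters were in 28 of 41 (68.3%) against 11.9%, and both were in 23 of 41 (56.1%) against 4.86%. The E2F letters were in 22 of 36 replication promoters (61.1%) against 8.95%. Such shares were not particular to lists that rose. Letters of the interferon response element were in 23 of 35 interferon promoters (65.7%) against 3.04%. Those of the heat shock element were in 8 of 22 heat shock promoters (36.4%) against 5.44%. Members of both lists were called about as often as all genes. In the cholesterol list, sterol element letters were in 1 of 18 (5.56%) against 3.27%. A link of these shares to the siRNA response was not tested. A match is a description of letters, not a site. KIF20A, the mitotic gene with the highest change, has 2 CCAAT matches and 0 CHR matches here.

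**Figure D3:**
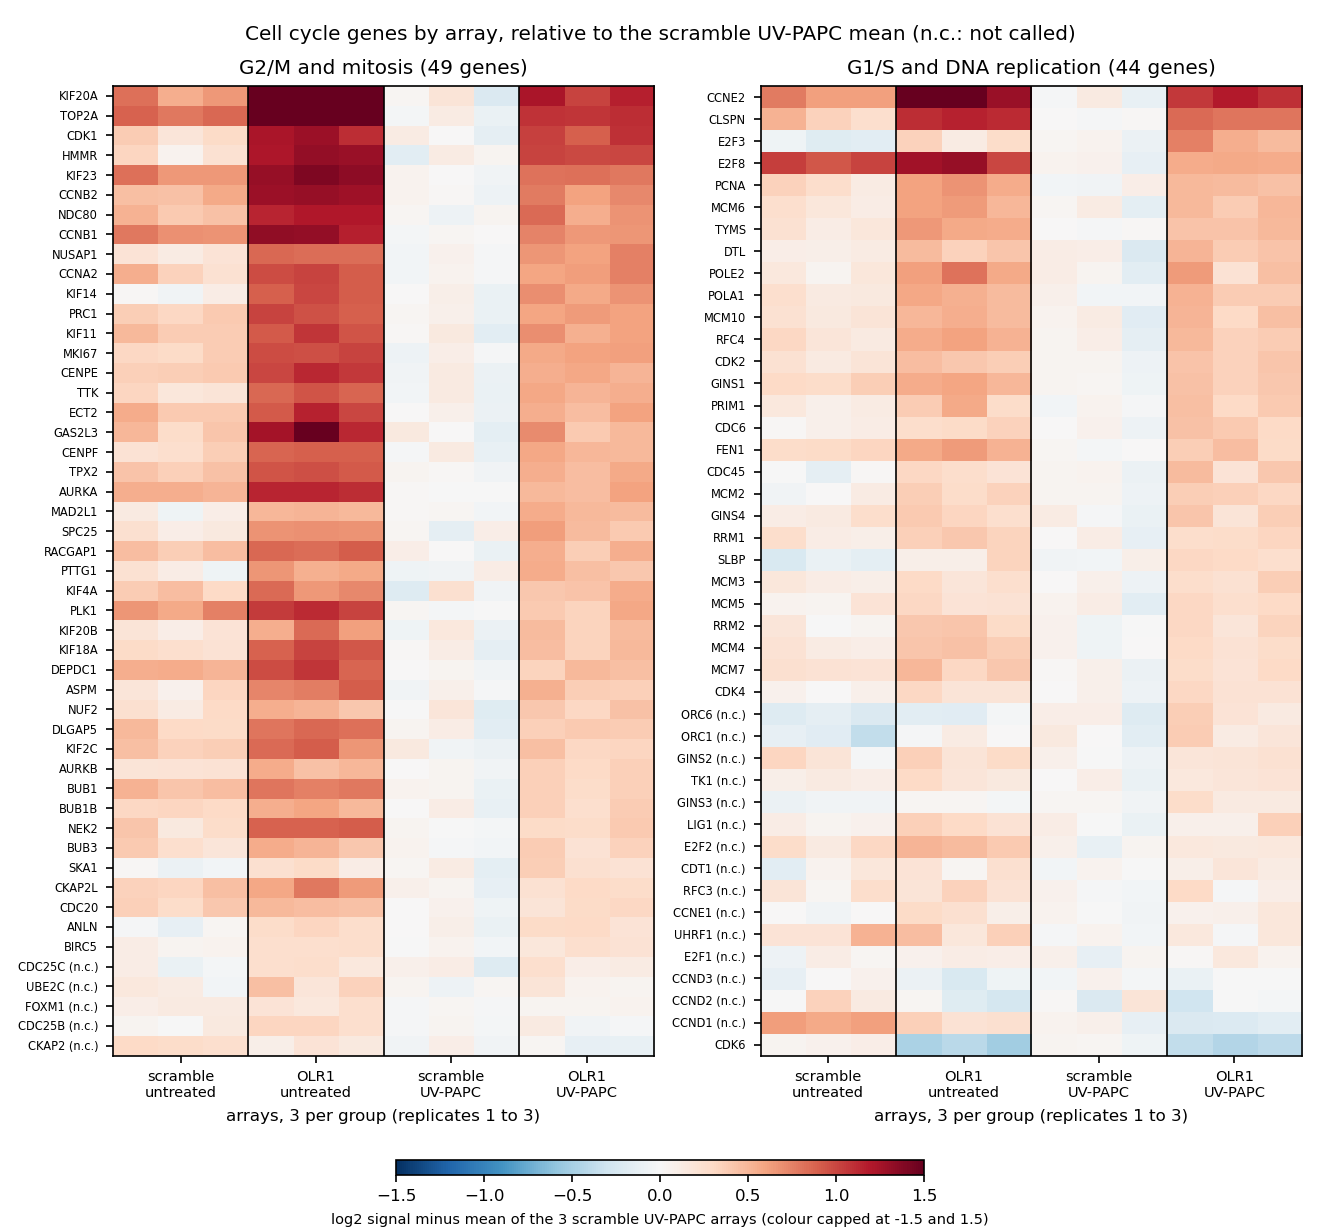
Log2 signal of each gene of both cell cycle lists (rows) in each of the 12 arrays (columns, 3 per group), relative to the gene's mean in the scramble UV-PAPC arrays; red is higher, blue lower, with the colour capped at 1.5 in either direction, and n.c. marks genes not called with UV-PAPC. The OLR1 siRNA columns are redder than the scramble columns of the same treatment for most genes, and CDK6 at the foot is bluer.

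The level of these genes also differed between treatments. On the same scale the mitotic list stood at 0.36, 0.26 and 0.32 in untreated scramble arrays and at 0.82, 0.86 and 0.79 in untreated OLR1 siRNA arrays. The OLR1 siRNA arrays with UV-PAPC (0.44 to 0.51) thus lay above the untreated scramble arrays and below the untreated OLR1 siRNA arrays. TOP2A went down with UV-PAPC by 0.84 under scramble and by 0.65 under OLR1 siRNA. These responses share arrays with the siRNA comparison and are given side by side only.

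Clustered histone genes, which supply new chromatin in S phase, were less clear. Of 39 measured, 2 rose and 0 fell, while 35 lay above 0 with a median of 0.14. H1-5 rose by 0.34 and H3C12 by 0.36, and near-identical histone paralogs can share probe signal. Scramble replicate 3 stood apart here, at 0.13 on the list mean against -0.10 and -0.04 in the other 2 scramble arrays, and the OLR1 siRNA arrays stood at 0.11, 0.07 and 0.25. Without scramble replicate 3 the count was 7, without OLR1 siRNA replicate 2 it was 5, and without scramble replicate 1 or 2 or OLR1 siRNA replicate 3 it was 1. It was 17 with array weights, 6 with the replicate block, 5 with trended and robust eBayes or median-centred arrays, and 1 with the 6 arrays alone; after repeated quantile or loess normalization 1 histone gene was called lower.

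Among receptors, the lists hold the pathway that OLR1 belongs to. Of 25 measured scavenger and oxidised-lipid receptors, 5 fell (OLR1 among them) and 1 rose, with a median of -0.05. These were 20% and 4% of the list, against 4.56% and 7.94% of all genes. TLR4, the endotoxin receptor that oxidised phospholipids also engage, read 8.60, 8.45 and 7.98 with scramble and 7.81, 7.55 and 7.66 with OLR1 siRNA, a change of -0.67 (SE 0.12, adjusted p = 0.00206). Scramble replicate 3 came closest to the OLR1 siRNA arrays without overlapping them. The prostaglandin receptors PTGER2 and PTGER4 fell by 0.52 and 0.41. SCARA3 differed by -0.34, a call that was lost without OLR1 siRNA replicate 1. CD68, a lysosomal scavenger receptor, rose by 0.44. The classical receptors for oxidised lipoprotein showed differences near 0: CD36 0.02 (95% interval -0.14 to 0.17), MSR1 0.01 (-0.15 to 0.16) and SCARB1 -0.15 (-0.30 to 0.01).

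The share of genes called, 12.5% over all genes, was 7.69% in the NADPH oxidase list and 7.41% in the cytokine list. It was 20% in the NF-kB list and 13.6% in the interferon list. Links of these lists to LOX-1 signalling were not tested. Of 13 NADPH oxidase genes 1 fell, NCF4 at -0.31, and this call was lost without scramble replicate 1 or 3 or OLR1 siRNA replicate 3. NOX4 differed by -0.13 and the phagocyte subunit CYBB by -0.03, neither called. Of 27 cytokines and chemokines, 1 rose and 1 fell. IL1B, the interleukin 1 beta gene, read 6.21, 6.22 and 6.04 with scramble and 5.85, 5.67 and 5.76 with OLR1 siRNA (change -0.39, adjusted p = 0.0102). LIF differed by 0.31 and was not called without scramble replicate 1 or 3 or OLR1 siRNA replicate 1 or 3. IL6 (-0.16) and CXCL8 (0.15) were not called. The cytokine count was 2 higher without scramble replicate 2 and 2 lower without OLR1 siRNA replicate 3. Of 25 NF-kB genes 2 rose and 3 fell, with a median of -0.03. NFKB1, the p105 and p50 subunit, rose from 8.56, 8.44 and 8.52 to 9.10, 9.18 and 9.19, by 0.65, whereas the feedback genes IER3 and ZC3H12A fell by 0.35 and 0.34. The second higher NF-kB gene, CYLD (0.30), was lost without scramble replicate 3 or OLR1 siRNA replicate 1 or 2. Of 44 interferon-stimulated genes 4 rose and 2 fell. IFI44 rose by 0.46 and DDX60 by 0.35, the higher count was 2 without scramble replicate 3, and the lower count was 0 without scramble replicate 1 or OLR1 siRNA replicate 1 or 2.

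**Figure D4:**
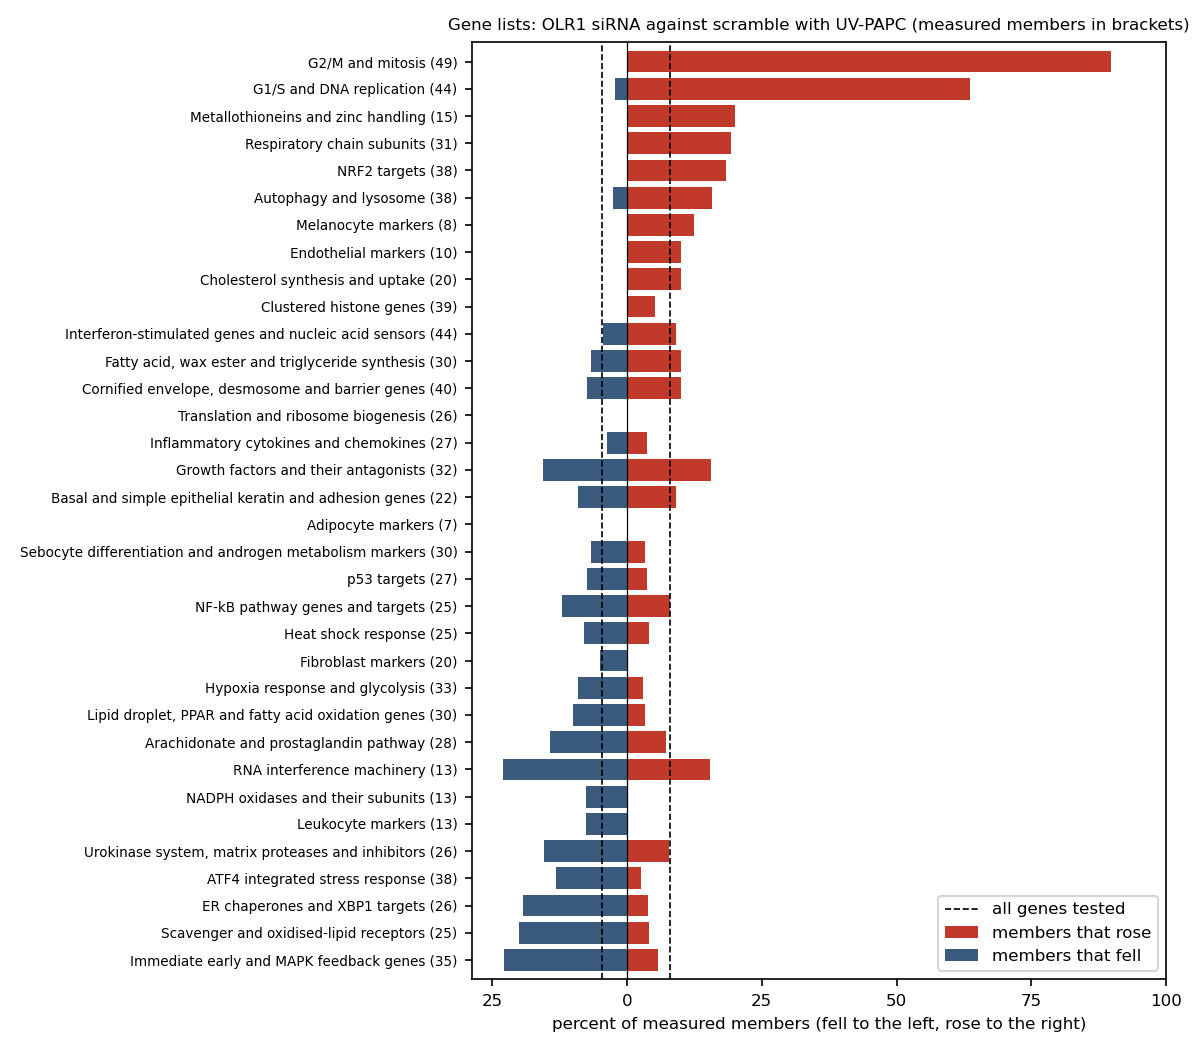
Percent of the measured members of each of 34 gene lists that rose (red, to the right) or fell (blue, to the left) with OLR1 siRNA under UV-PAPC; the number measured is in brackets and dashed lines mark the 7.94% and 4.56% of all genes. The mitotic list (44 of 49) and the replication list (28 of 44) reach far past the dashed line, and the other lists lie within 25% on either side.

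Of the stress lists here, NRF2 targets were called higher more often than all genes, and heat shock genes were called about as often. Oxidised lipids are known to engage the antioxidant factor NRF2, and of 38 NRF2 targets 7 rose (18.4%, against 7.94% of all genes) and 0 fell, with a median of 0.05. GCLC, the catalytic subunit for glutathione synthesis, read 8.36, 8.62 and 8.30 with scramble and at least 8.93, with a median of 8.96, with OLR1 siRNA (change 0.54, adjusted p = 0.00127). The exporter ABCC2 rose by 0.51 and NFE2L2, which encodes NRF2, by 0.28. HMOX1 (0.20) and NQO1 (0.05) were not called. The NRF2 count was 3 without scramble replicate 3 or OLR1 siRNA replicate 1, 4 without OLR1 siRNA replicate 3 or with the 6 arrays alone, and 3 after repeated quantile or loess normalization, where 3 other targets were called lower. Of 25 heat shock genes 1 rose and 2 fell (12% called, against 12.5% of all genes). The lower count was 0 without scramble replicate 1 or OLR1 siRNA replicate 3, 1 without scramble replicate 2 or OLR1 siRNA replicate 2 and 4 without OLR1 siRNA replicate 1, and the higher count was 0 without OLR1 siRNA replicate 3. With array weights or another scaling by quantiles or loess 6 fell, and with median-centred arrays 3 rose. HSPA6, an inducible Hsp70 that stood 4.20 higher with UV-PAPC than without under scramble siRNA and 4.40 higher under OLR1 siRNA, read 11.45, 11.30 and 11.20 with scramble and 11.02, 10.88 and 10.56 with OLR1 siRNA, a change of -0.50 whose call was lost without scramble replicate 1 or OLR1 siRNA replicate 3.

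Among amino acid and protein-folding stress genes more fell than rose. Of 38 ATF4 targets 5 fell (13.2%, against 4.56% of all genes) and 1 rose, and 9 fell with array weights and 8 after quantile normalization. CHAC1, which degrades glutathione, read 8.23, 8.12 and 7.83 with scramble and 7.29, 7.13 and 7.31 with OLR1 siRNA (change -0.81, adjusted p = 0.00054). DDIT4, an inhibitor of mTORC1, fell by 0.46, the hormone STC2 by 0.39 and the pseudokinase TRIB3 by 0.38, while the mitochondrial folate enzyme MTHFD2 rose by 0.33. Of 26 ER chaperones and XBP1 targets 5 fell (19.2%) and 1 rose. The lower count was 3 without scramble replicate 1 or OLR1 siRNA replicate 2, and 8 and 10 after quantile and loess normalization. HERPUD1, a factor of ER-associated degradation, went from 9.49, 9.57 and 9.30 to 8.92, 8.92 and 8.74 and fell by 0.59, and CRELD2 fell by 0.29. The call of EDEM1 (0.34), the higher gene, was lost without scramble replicate 3 or OLR1 siRNA replicate 1. Of 27 p53 targets 1 rose and 2 fell (11.1% called, against 12.5% of all genes). The translesion polymerase POLH changed by 0.46 and the kinase PLK3 by -0.50, while the call of PHLDA3 (-0.29) was lost without OLR1 siRNA replicate 1. Of 33 hypoxia and glycolysis genes 12.1% were called, again near the share of all genes. LOX, the collagen cross-linking oxidase, fell by 0.70, the hypoxia factor EPAS1 by 0.67 and the angiogenic factor VEGFA by 0.35. PFKFB3 (0.25) was the 1 that was higher, and its call was lost without scramble replicate 1 or 3 or OLR1 siRNA replicate 3. After quantile or loess normalization 7 of these hypoxia and glycolysis genes fell, with trended and robust eBayes 5 rose and 5 fell, and 4 of the p53 targets fell with array weights.

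Growth signalling genes were called in both directions, beside 7.94% of all genes higher and 4.56% lower. Of 35 immediate early and MAP kinase feedback genes 8 fell (22.9%) and 2 rose (5.71%), against 10 and 1 in untreated cells. The median of the list was -0.11 with UV-PAPC and -0.17 without, and 0 members were called for the difference. A link of this list to LOX-1 signalling was not tested. With UV-PAPC, 13 fell with trended and robust eBayes. PHLDA1 read 8.45, 8.55 and 8.38 with scramble and 7.62, 7.67 and 7.70 with OLR1 siRNA and fell by 0.80, the p38 and JNK phosphatase DUSP10 by 0.73 and the TGF-beta-induced factor KLF10 by 0.44, and the feedback inhibitor SPRY2 rose by 0.36. The higher count was 1 without scramble replicate 1 or 3 or OLR1 siRNA replicate 1 or 2. Of 32 growth factors and antagonists 5 rose and 5 fell (15.6% each way). TGFA, an EGF receptor ligand, went from 7.75, 7.64 and 7.46 to 8.35, 8.22 and 8.46 and rose by 0.73. EREG, another EGF receptor ligand, went from 7.90, 7.82 and 7.75 to 7.32, 7.33 and 7.25 and fell by 0.52, and FGFBP1, which releases fibroblast growth factors, rose by 0.41. The higher count was 3 without scramble replicate 3, and the lower count 3 without scramble replicate 1 or OLR1 siRNA replicate 1 or 3.

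In the sebaceous and lipid lists the share called ran from 10% to 21.4%, against 12.5% of all genes. Of 30 sebocyte differentiation and androgen genes 1 rose and 2 fell, with a median of -0.12. The steroid dehydrogenase HSD3B1 (-0.54) lost its call without scramble replicate 1 or OLR1 siRNA replicate 3, and DGAT2 (0.30) without scramble replicate 3 or OLR1 siRNA replicate 1 or 2. CIDEA (-0.33) lost it without any of 8 arrays, scramble replicates 2 and 3 and OLR1 siRNA replicates 1 and 2 among them. Of 30 genes of fatty acid, wax and triglyceride synthesis 3 rose and 2 fell. ACSL1, which activates long-chain fatty acids, read 8.13, 8.18 and 7.98 with scramble and 7.45, 7.33 and 7.36 with OLR1 siRNA (change -0.72, adjusted p = 1.58e-05), and the elongase ELOVL7 fell by 0.60. The higher count was 0 without scramble replicate 3, 1 without OLR1 siRNA replicate 1 or 3 and 5 without scramble replicate 2. In 30 lipid droplet, PPAR and oxidation genes 1 rose (the dehydrogenase ACADM, 0.32) and 3 fell, the carnitine transferase CPT1A by 0.34 among them. Of 20 cholesterol genes 2 rose, the isomerase IDI1 by 0.37 and ACAT2 (0.30), whose call was lost without scramble replicate 1 or 3 or OLR1 siRNA replicate 1. Of 28 arachidonate and prostaglandin genes 2 rose, the chaperone and prostaglandin E synthase PTGES3 by 0.34 and the reductase PTGR1 by 0.29, and 4 fell, and the lower count was 2 without scramble replicate 1 or 2, OLR1 siRNA replicate 3 or replicate 1 of either untreated group, and with median-centred arrays. In the cholesterol list 4 rose with median-centred arrays, and after loess normalization 1 rose and 2 fell; in the sebocyte list 4 fell with array weights or after loess normalization.

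Lysosomal, mitochondrial and metal-binding lists held more members called higher than lower, at 15.8%, 19.4% and 20% of members against 7.94% of all genes. Calls followed signal, with 1040 of the 6139 brightest genes higher. Whether these shares differ from those of genes of like signal was not tested. Of 38 autophagy and lysosome genes 6 rose and 1 fell, the membrane protein LAMP2 by 0.44. The higher count was 2 without scramble replicate 3 and 1 without OLR1 siRNA replicate 1. ATP6V0E2, the proton pump subunit named above among the genes that fell furthest, is not a member of this list. Of 31 respiratory chain subunits 6 rose and 0 fell, with a median of 0.14, COX7A2 by 0.44 and COX5B by 0.32. That count was 2 without scramble replicate 1 or OLR1 siRNA replicate 1 and 3 without scramble replicate 3, OLR1 siRNA replicate 3 or any of 4 untreated arrays, with the 6 arrays alone and after quantile or loess normalization, where loess also left 3 in the lysosomal list. Of 15 metallothionein and zinc genes 3 rose, MT1E by 0.45, MT1X by 0.43 and the zinc-sensing factor MTF1 by 0.38, while 5 of the 15 lay above 0 and the median was -0.03. MT1X lost its call without scramble replicate 2, and metallothionein paralogs can share probe signal. Of 26 translation and ribosome biogenesis genes 0 were called by limma, with 11 at an unadjusted p under 0.05, 23 above 0 and a median of 0.10. The same list gave 11 higher calls with trended and robust eBayes, 6 among genes above the median signal, 5 with median-centred arrays, 2 with array weights and 0 in the other scalings. Of 13 genes of the RNA interference machinery 2 rose and 3 fell. TNRC6A, a scaffold of the silencing complex, rose by 0.42. The other higher gene, PRKRA (0.25), an activator of the kinase PKR, lost its call without scramble replicate 1 or 3, any OLR1 siRNA array, untreated scramble replicate 2 or 3 or untreated OLR1 siRNA replicate 1, with the 6 arrays alone and after quantile or loess normalization. The lower count was 0 without scramble replicate 1 or 2 or with the 6 arrays alone, and 1 without any OLR1 siRNA array.

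In the basal keratin and adhesion, barrier and protease lists 9.09%, 10% and 7.69% rose, against 7.94% of all genes. The shares that fell were 9.09%, 7.5% and 15.4%, against 4.56%. Among 22 basal keratin and adhesion genes ITGB6 and the collagen receptor chain ITGA2 (-0.43) fell, and the integrin chains ITGA5 and ITGA6 rose by 0.40 and 0.33. With trended and robust eBayes 4 of this list rose and 4 fell, and after quantile or loess normalization 5 fell. Of 40 cornified envelope and barrier genes 4 rose and 3 fell. CLDN1 led the falls, the lower count was 1 without OLR1 siRNA replicate 1, and the higher count was 0 without scramble replicate 3 and 2 without scramble replicate 1 or any OLR1 siRNA array. Of 26 protease genes 2 rose and 4 fell: MMP9, a gelatinase, by 0.46, and the matrix protein THBS1, from 12.53, 12.54 and 12.43 to 12.12, 12.10 and 12.13, by 0.38. SERPINE2, a protease inhibitor, rose by 0.33. The lower count was 2 without OLR1 siRNA replicate 1, and the higher count was 5 with trended and robust eBayes, 4 with median-centred arrays and 1 without any of the 6 arrays or untreated scramble replicate 2.

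Markers of other cell types gave few calls. Of 20 fibroblast markers 1 was called lower (COL6A2, -0.21, lost without scramble replicate 1 or 3, any OLR1 siRNA array or replicate 3 of either untreated group), of 13 leukocyte markers 1 (CD8A, -0.29, lost without scramble replicate 3 or OLR1 siRNA replicate 1 or 3), and of 7 adipocyte markers 0, with 1 under an unadjusted p of 0.05. Of 10 endothelial markers the cadherin CDH5 rose by 0.50, and PECAM1 (4.03) and VWF (4.58) were low in the scramble arrays. Of 8 melanocyte markers MITF rose by 0.43. The 5 defining melanocyte genes TYR, TYRP1, PMEL, MLANA and SOX10 were each lower by 0.17 to 0.26 with no call, and their mean signal was 4.60 to 4.62 in the scramble arrays and 4.37 to 4.39 in the OLR1 siRNA arrays. Both ranges lie below every array's median, and groups that do not overlap were seen for 30.8% of all genes. The part of these markers in the other results was not tested.

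The same siRNA contrast without the lipid was made on 6 arrays that the UV-PAPC comparison does not use. In untreated cells 1789 genes were called (9.71%), 975 higher (5.29%) and 814 lower (4.42%). This count was 1113 and 1158 without untreated scramble replicate 2 or 3, and 1101 without untreated OLR1 siRNA replicate 2. Both comparisons called 1152 genes, which is 50.04% of the calls with UV-PAPC and 64.4% of those without, and 723 were higher in both, 429 lower in both and 0 opposite. The spread was estimated over all 12 arrays, and with each comparison fitted on its own 6 arrays the figures were 902 shared of 1599 and 1717, again with 0 opposite. Of the 2302 genes called with UV-PAPC, 2227 (96.7%) had the same sign in untreated cells, against 70.7% of all genes. CNN2 differed by 1.59 with UV-PAPC and 1.40 without, HMGB2 by 1.16 and 1.29, LRRC58 by -1.54 and -1.66, ATP6V0E2 by -1.41 and -1.28 and CYGB by -1.22 and -1.16. Among the lists, 39 of the 49 mitotic genes rose in untreated cells (median 0.52) and 21 of the 44 replication genes (median 0.23).

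**Figure D5:**
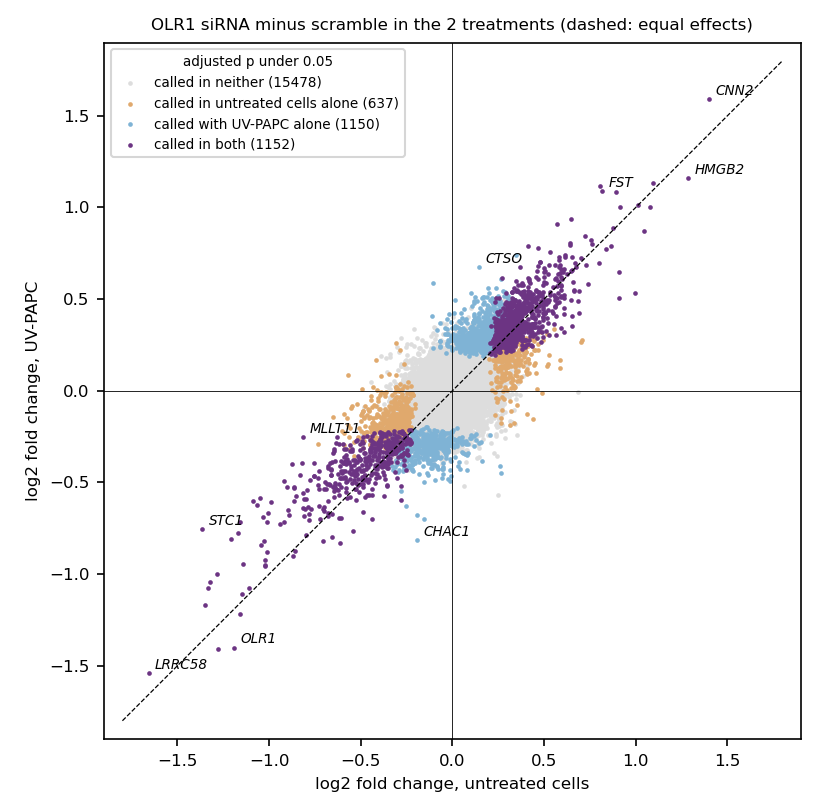
Log2 fold change of OLR1 siRNA over scramble siRNA with UV-PAPC (vertical axis) against the same in untreated cells (horizontal axis), a point per gene; the dashed line marks equal effects and colours give where a gene was called. The 1152 genes called in both lie along the dashed line in the upper right and lower left, with CNN2 and LRRC58 at the ends.

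Whether the siRNA effect differed between treatments was tested directly. The difference of the effects (UV-PAPC minus untreated) was called for 0 genes (0%) by limma, and in 0 under each alternative in which it was computed, with a smallest adjusted p of 0.52. An unadjusted p under 0.05 was found for 1004 genes (5.45%). The median standard error of the difference was 0.12 on the log2 scale, so small differences were not detectable with 3 arrays a group. Larger ones also went uncalled, since the largest difference of any gene was 0.81 in size. For OLR1 the difference was -0.21 (95% interval -0.75 to 0.33). The lowest p-values belonged to STC1, LSM11, MLLT11, CTSO and H1-3, all with an adjusted p of 0.52. STC1, the hormone stanniocalcin 1, differed by -0.76 with UV-PAPC and by -1.36 without (difference 0.61, interval 0.37 to 0.85). CTSO, a lysosomal cysteine protease, differed by 0.68 and 0.15, and its untreated arrays read 4.56, 4.83 and 4.79 with scramble and 4.84, 4.87 and 4.90 with OLR1 siRNA. MLLT11 differed by -0.25 and -0.81, LSM11, which serves histone RNA processing, by -0.13 and 0.40, and the linker histone H1-3 by -0.19 and 0.31. CHAC1 differed by -0.81 with UV-PAPC and -0.19 without (difference -0.62, interval -0.98 to -0.26, adjusted p = 0.86). Of the 39 clustered histone genes 17 rose in untreated cells (median 0.28) and 2 with UV-PAPC (17 with array weights), while 0 of the 39 were called for the difference and 3 had an unadjusted p under 0.05. In the mitotic list the differences ran from -0.46 to 0.19 with a median of -0.02, and in the replication list from -0.12 to 0.37 with a median of 0.08.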

How the data were processed

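RNA of 12 SZ95 samples was measured on Affymetrix HuGene 1.0 ST arrays. Per the submitters' processing notes, the authors obtained log2 signals per probe set from Affymetrix Expression Console 1.3.1.187 by RMA, and the deposited log2 values were used as they stand. RMA compresses large fold changes, and the number of arrays limits precision. The sources used here give no RMA settings. Of 33297 entries, the probe annotation, which can be old, names 1 gene for 19460, several for 1754 and none for 12083. Of the first, 19429 were matched by Entrez number to current symbols and 0 symbols changed. The brightest probe set was kept for 769 genes with more than 1, which left 18417 genes.

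The 4 group means were fitted to the 12 arrays with limma 3.58.1 in R 4.3.3 (default eBayes, 8 residual and 7.66 prior degrees of freedom, two-sided, Benjamini-Hochberg over all genes, threshold 0.05), after a check on simulated data. Fits of 6 arrays alone, other eBayes settings, array weights, scalings, a signal filter, probe set averages, a replicate block and leaving out each array were alternatives. Same-numbered samples did not deviate together, so numbers were not used as pairs.

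Named are OLR1, the 12 highest and 12 lowest called genes whose groups do not overlap, the 5 lowest p-values of the difference of effects, the 5 highest and 5 lowest called in both treatments, up to 6 called members per list and direction, and up to 3 defining members that were not called. Small RNAs, antisense and uncharacterised genes were left out of the ranks. The members and the 34 lists (927 of 999 listed members measured) were chosen with earlier results of these data known. Plots used matplotlib 3.10.9 under Python 3.11.15.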

Additional observations from a re-analysis of the deposited data

How the results depend on the processing

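Of the 153 called genes besides OLR1 that the naming rule takes, not all of which are described above, 86 kept their direction and call in all 21 alternatives and 67 lost the call in at least 1, with 0 reversed. OLR1 itself kept its call, from -1.56 to -1.21 over the 12 fits that each leave out an array. Leaving out an array gave 1267 to 2254 called genes with UV-PAPC (769 to 1437 higher, 498 to 863 lower) and 1101 to 2055 in untreated cells. The mitotic list median of 0.47 became 0.41 after repeated quantile or loess normalization (0.414 and 0.408), and the replication list median of 0.29 became 0.20 and 0.19. In these scalings 1165 and 1176 genes were higher and 944 and 942 lower. With 6 arrays alone 1003 were higher and 596 lower. Of 1365 counts of smaller lists under alternatives, 271 differed from the reported count by over 1.5 times, mostly counts under 10. The replicate block gave 2309 called genes (1453 higher, 856 lower). Correlations of deviations between same-numbered samples ran from -0.22 to 0.26 over 18 pairs, 1 of the 3 pairs of the UV-PAPC comparison was over 0.1, and the cause of the shifts above was not tested. The table holds no background signal, so dim genes could not be set against it.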

Other observations

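The lists and classes here were chosen after the data were seen and get no test of their own; each count stands against the 7.94% of genes higher and 4.56% lower. Chromosome machinery beyond the mitotic list rose with OLR1 siRNA under UV-PAPC. Of 22 cohesin and condensin genes, which hold sister chromatids and fold them, 17 rose and 0 fell with a median log2 difference of 0.31 (NCAPD2 0.65, ESCO2 0.66, NCAPH 0.54, RAD21 0.49). The count was 10 without scramble replicate 3 and 11 without OLR1 siRNA replicate 1. Of 24 centromere and kinetochore genes 14 rose and 0 fell (HJURP, the loader of the centromeric histone, 0.55, DSN1 0.51), with 7 without either of those arrays. Of 28 homologous recombination and Fanconi genes 12 rose and 0 fell (MND1 0.74, RMI1 0.69, the helicase BLM 0.50, BRCA1 0.39). Of 27 nucleoporins 14 rose and 0 fell (SEH1L 0.68, NUP37 0.44), with 6 without either array, 8 without scramble replicate 1 or OLR1 siRNA replicate 3, and 8 and 7 after quantile and loess normalization. Of 21 cell cycle inhibitors and DREAM complex genes 6 rose and 1 fell, among them RBL2 (0.41), RBL1 (0.35) and RB1 (0.30), which restrain E2F genes. That higher count was 2 without scramble replicate 3, 3 without OLR1 siRNA replicate 1 and 4 without OLR1 siRNA replicate 3, and the lower gene TOB1 (-0.23) lost its call without most single arrays.

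Signalling families split within themselves. Of 22 Hippo pathway genes 4 rose and 3 fell: the kinase STK3 rose by 0.49 and its partner SAV1 by 0.38, while MOB1B fell by 1.00, the DNA-binding partner TEAD1 by 0.59 and the coactivator YAP1 by 0.29, and MOB1A, the close relative of MOB1B, rose by 0.30. Of 21 tight junction genes 3 rose and 2 fell, CLDN1 by 1.07 and CLDN12 by 0.67, and the higher count was 0 without scramble replicate 3 and 1 without scramble replicate 1 or OLR1 siRNA replicate 1. Of 17 DUSP phosphatases 1 rose and 3 fell, DUSP7 by 0.79, DUSP10 by 0.73 and DUSP16 by 0.39. The count that fell was 5 without scramble replicate 3, and the count that rose was 0 without scramble replicate 2 or 3 or OLR1 siRNA replicate 1 or 3.

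Small nucleolar RNAs, which guide modification of ribosomal RNA, were called higher for 22 and lower for 1 of 175 genes, against 10 and 1 in untreated cells. Of all genes 7.94% were called higher with UV-PAPC and 5.29% without, and 0 genes were called for the difference of the effects. The higher count of small nucleolar RNAs ran from 15 to 27 when single arrays were left out, with 15 without OLR1 siRNA replicate 3 and 27 without scramble replicate 3. Among the called snoRNAs, SNORD74, SNORD75, SNORD77, SNORD78 and SNORD79, which lie in introns of the host gene GAS5, rose by 0.24, 0.35, 0.47, 0.53 and 0.61. In untreated cells they differed by 0.03, 0.02, 0.25, 0.10 and 0.47. They were picked from called genes, so they do not stand for all snoRNAs of that host. Of 632 long non-coding RNA genes 3 rose and 27 fell with a median of -0.07, against 10 and 12 in untreated cells. The share that fell was close to the 4.56% of all genes, and the share that rose was below the 7.94%. Calls also followed signal, with 41 of the 6139 dimmest genes higher and 124 lower. The long non-coding RNAs were not set against genes of like signal. The lower count was 11 without scramble replicate 3, 15 without scramble replicate 1, 10 without OLR1 siRNA replicate 1, and 15 without OLR1 siRNA replicate 3. The higher count was 5 without scramble replicate 1 and 7 and 6 without OLR1 siRNA replicates 2 and 3. Scaling moved both counts, to 8 higher and 12 lower after quantile normalization, 10 and 12 after loess normalization and 7 and 14 with median-centred arrays. Small RNAs are short of probes and the RNA kit and array were not designed to size-select them, so precursor and mature forms cannot be told apart.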
